A study of Mus musculus with 30 samples.

Results

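The comparison described here is that of dTKO mouse embryonic stem cells kept for 48 h in auxin and dTAG13 with the same cells at 0 h, in nascent RNA measured by TT-seq. The 48 h group held 3 libraries and the 0 h group 3, which are 6 of the 15 libraries, and 12 of the 30 sequencing samples, of a time course of 5 times. The groups were taken from the time in the sample labels, and no measured value chose them. Cells of both groups carry the label Suv39h1fl/fl; Suv39h2-/-; Setdb1fl/fl, so the loss of Suv39h2 and the floxed alleles are common to 48 h and 0 h. At 48 h the medium had held 100 µg/ml of auxin and 0.5 µM of dTAG13 for 48 hours, and the 0 h libraries are the baseline; their treatment label names both agents as well, and a vehicle control is not among the samples used here. All libraries come from 1 named line, which limits the comparison as a model of embryonic stem cells in general. The cells were given 4-thiouridine at 1 mM for 10 minutes to label new RNA. The 3 libraries of a time are named biological repeats, and each was sequenced in 2 runs that count as 1 replicate.

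Auxin and dTAG13 are small molecules that bring proteins carrying matching degron tags to a ubiquitin ligase, so that the tagged protein is broken down. SETDB1, SUV39H1 and SUV39H2 are enzymes that place trimethyl groups on lysine 9 of histone H3, the mark of heterochromatin. In mouse embryonic stem cells SETDB1 is known for the silencing of endogenous retroviruses and of germline genes, and the SUV39H enzymes for the mark at pericentromeric satellites and young retrotransposons. The genotype label names no degron tag, so the sources used here do not say which proteins the agents removed. TT-seq purifies the RNA made during a short 4-thiouridine pulse, so its values follow transcription over minutes more than the store of mature RNA.

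Values are scaled reads, that is reads of a unit divided by 1 size factor per library as deposited, with no division by length, so levels are compared between times and never between genes. Reads recovered from these values over genes, leaving out the ribosomal precursor Rn45s, ran from 17.4 to 17.7 M (M, 1e6 reads) at 48 h, against 18.6 to 20.9 M at 0 h. Repeat copies held 1.99 to 2.06 M at 48 h and 0.837 to 0.920 M at 0 h. Markers of embryonic stem cells were transcribed in all 6 libraries: of the core pluripotency factors, Pou5f1 averaged 461 ± 23.9 scaled reads at 48 h, against 974 ± 29.9 at 0 h (SD, n = 3 each), and Nanog 1005 ± 59.5 scaled reads at 48 h, against 1755 ± 145 at 0 h. The size factors are those of the authors; the series design names a yeast spike-in for adjusting signal between times, and no source used here says how the factors were computed. A second scale was therefore used beside the deposited one, in which each library was divided by its median ratio over genes.

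In bulk libraries, fewer or more cells of a kind and less or more RNA per cell cannot be told apart, and this holds for each result. On the deposited scale, genes as a class were lower at 48 h, repeats of the LTR class were higher, and non-coding units split into both. Of 15261 tested genes, limma called 1167 up (7.65%) and 8905 down (58.4%) at an adjusted p under 0.05, around a median log2 change of -0.37. The quartiles of the gene changes were -0.58 and -0.14, so most of the down calls were small, and 992 of them and 463 up calls reached 2-fold. Rescaling over genes moved that median to -0.008 and gave 4544 up calls (29.8%) and 4428 down calls (29%). All 1167 up calls stood on both scales, as did 4428 of the down calls. Another 4347 down calls were lost by rescaling, 3247 genes with no call became up calls, and 130 genes called down on the deposited scale were called up after it. Of 774 repeat families, 181 were called up (23.4%) and 38 down (4.91%), with 499 (64.5%) and 11 (1.42%) after rescaling. Single repeat copies gave 3515 up calls (26%) and 1660 down calls (12.3%) of 13519 tested, with 4239 (31.4%) and 717 (5.3%) after rescaling. Of 15730 non-coding units, 4613 were called up (29.3%) and 6195 down (39.4%), with 5621 (35.7%) and 3456 (22%) after rescaling. A copy or unit silent at 0 h could pass the minimum mean of 10 only by rising; among those with a 0 h mean of 10 or more, 755 of 9965 copies rose and 1660 fell, and 1734 of 12653 non-coding units rose and 6195 fell.

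**Figure D1:**
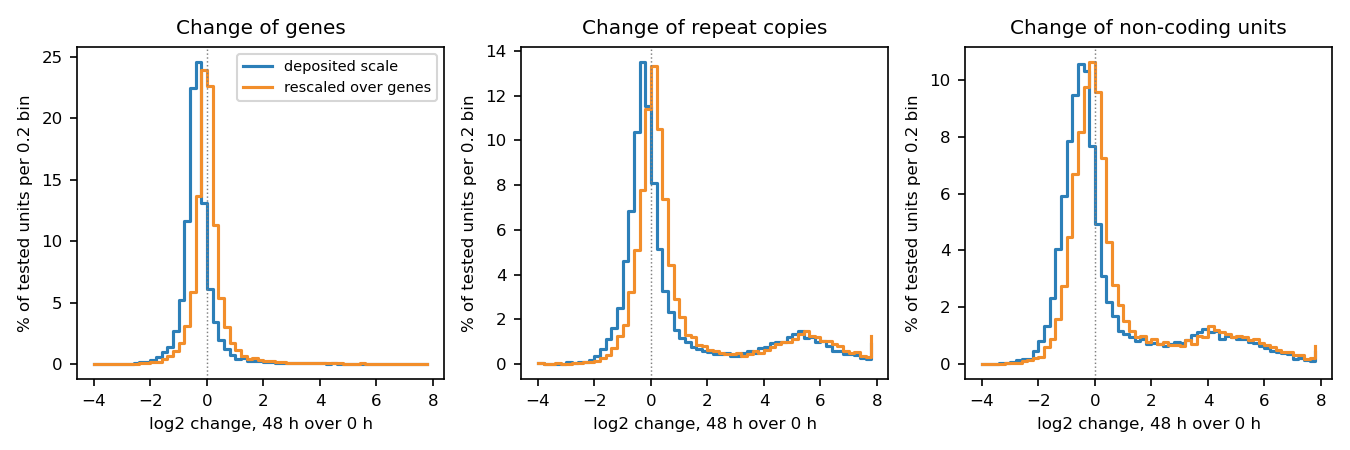
Distribution of the fitted log2 change at 48 h over 0 h (x axis) as the percent of tested units per bin of 0.2 (y axis) for genes, repeat copies and non-coding units, on the deposited scale (blue) and after rescaling over genes (orange); values beyond the axis are placed in the end bins. The gene curve moves from a median of -0.37 to -0.008 with rescaling, while copies and non-coding units keep a second group of rises of several log2 units on both scales.

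Summed over a class, the 3 libraries at 48 h and the 3 at 0 h did not overlap for most classes. Genes without Rn45s summed to 13310260 ± 388116 scaled reads at 48 h, against 16342073 ± 917504 at 0 h, a log2 ratio of -0.30, which became 0.07 after rescaling. Rn45s itself, the 45S ribosomal RNA precursor made by RNA polymerase I, gave 4912185 ± 161608 scaled reads at 48 h, against 5730989 ± 209679 at 0 h (log2 ratio -0.22, and 0.14 rescaled). LTR copies, the remains of endogenous retroviruses, summed to 1092858 ± 53363 scaled reads at 48 h, against 252263 ± 12933 at 0 h (log2 ratio 2.12, 2.48 rescaled). Their share of all repeat signal was 71.5% at 48 h and 34.8% at 0 h. Within the LTR class the ratio was 2.65 for ERVK, 1.53 for ERV1, 1.21 for ERVL and -0.04 for ERVL-MaLR, whose 48 h and 0 h libraries overlapped. L1, the autonomous LINE retrotransposon, summed to 145118 ± 3495 scaled reads at 48 h, against 116671 ± 5978 at 0 h (log2 ratio 0.31). SINE copies, short retrotransposons that sit densely near genes, summed to 229878 ± 6286 scaled reads at 48 h, against 299143 ± 14829 at 0 h; the log2 ratio of -0.38 became -0.02 after rescaling. Satellite copies summed to 24095 ± 204 scaled reads at 48 h, against 15818 ± 1176 at 0 h (log2 ratio 0.61). Within this sum the family GSAT_MM gave 11039 ± 497 scaled reads at 48 h, against 1175 ± 63.7 at 0 h. Of 210 tested satellite copies 18 rose and 16 fell, around a median of -0.18, with 31 and 7 after rescaling. All tested copies gave 26% up and 12.3% down calls, and 31.4% and 5.3% after rescaling.

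**Figure D2:**
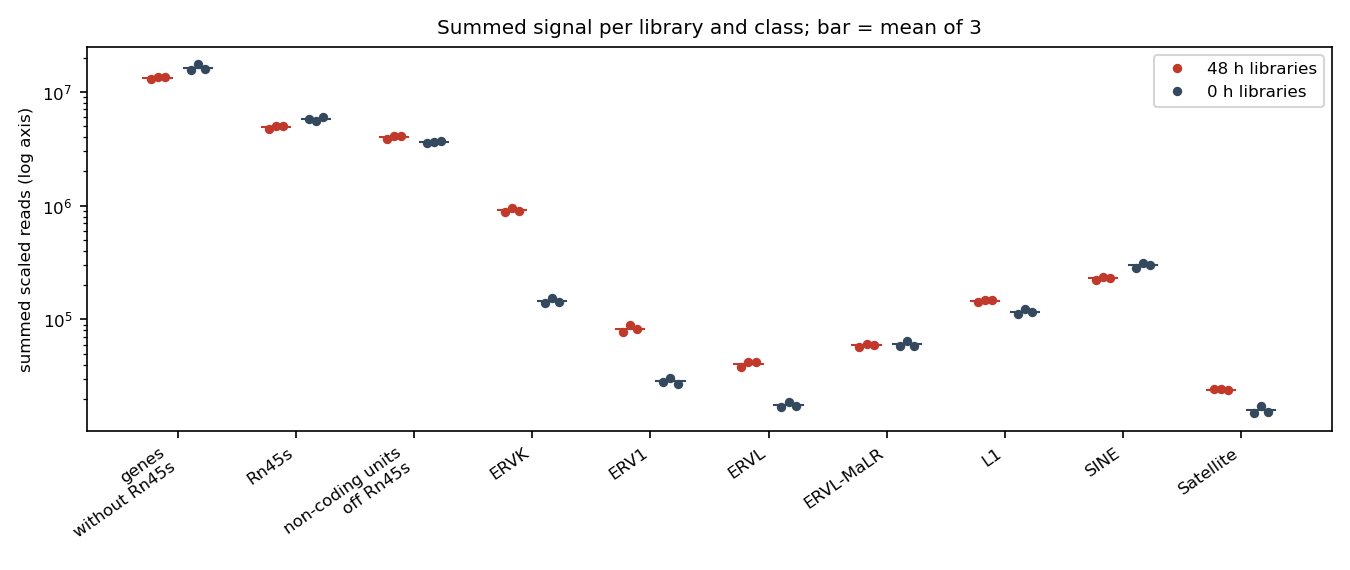
Summed scaled reads per library (y axis, log scale) in genes, Rn45s, non-coding units and repeat groups; each point is 1 library, 48 h in red and 0 h in dark blue, and the bar is the mean of 3. The ERVK points at 48 h lie between 869257 and 956966, above 152836, the highest at 0 h, while the ERVL-MaLR points of the times overlap.

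The fall of genes was not even over gene length. With the tested genes in 5 equal groups by length, the median log2 change was -0.43 in the shortest group (up to 7716 bp), -0.44, -0.38 and -0.32 in the next 3, and -0.26 in the longest group (from 74788 bp). After rescaling these medians were -0.068 in the shortest group and 0.10 in the longest. Up calls numbered 188 in the shortest group and 379 in the longest. In 5 groups by signal per kb at 0 h the medians differed less, from -0.26 in the lowest to -0.39 in the highest, but the spread differed more: 809 genes of the lowest group and 54 of the highest had a call of at least 2-fold. Since the second split uses the 0 h libraries of the comparison itself, it is a description.

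The 20 genes that rose most under the naming rule included 3 Clec2 genes, 4 Zscan4 genes and 2 matrix metalloproteinase genes. They had log2 changes from 3.99 to 8.26. The naming rule admitted only genes called on both scales whose groups did not overlap. In parentheses, a log2 change is given with its standard error (SE) from limma. Vmn2r96, a vomeronasal receptor gene, stood first, with 356, 418 and 358 scaled reads at 48 h and a single read in 1 of the 3 libraries at 0 h, which gives a ratio of 1357 (95% exact interval 243 to 53642, counting error only). Clec2f (7.27, SE 0.15) and Clec2g (7.0, SE 0.13), which encode C-type lectin-like receptors, and Mmp1b (6.87, SE 0.16), an interstitial collagenase gene, followed with Poteg (5.79, SE 0.22). Zscan4f, a zinc finger gene of the 2-cell embryo, gave 479, 641 and 586 scaled reads at 48 h, against 12.2, 16.6 and 13.7 at 0 h. Mmp12, the macrophage elastase gene (chr9:7344397-7360461), gave 698, 691 and 687 scaled reads at 48 h, against 21.9, 34.1 and 24.0 at 0 h, for a log2 change of 4.67 (SE 0.14). Akr1c21, an aldo-keto reductase gene (chr13:4574075-4586543), gave 335, 356 and 416 scaled reads at 48 h, against 12.2, 18.3 and 17.1 at 0 h (4.47, SE 0.15). In each of these 3 genes the lowest 48 h library was more than 10 times the highest at 0 h. Clec2i, a C-type lectin-like gene, gave 522, 651 and 582 scaled reads at 48 h, against 32.5, 29.1 and 26.6 at 0 h (4.27, SE 0.14). The dipeptidase gene Dpep1 (chr8:123186235-123201813) gave 177, 155 and 178 scaled reads at 48 h, against 9.75, 9.98 and 9.43 at 0 h (3.99, SE 0.19). The 48 h libraries of these genes lay close to each other. PIRA6, spelled as in the files, rose by 5.76 and the deubiquitinase gene Usp17le by 5.08. Mir467e rose by 4.08, but the unit listed under that microRNA name spans chr1:10708387-10865874, 157488 bp, and holds risen retroviral copies described below. Beside 7.65% up calls over all tested genes, 7 of 10 tested C-type lectin, MHC class I-like and natural killer complex genes rose and 0 fell. The 6 of these with a 0 h mean of 10 or more gave 4 rises and 0 falls. H2-D1, a classical MHC class I gene, was among the risen members (1.53, SE 0.22), while H2-K1, the other, did not pass on the deposited scale (0.24, SE 0.16). The values of single Clec2 and Zscan4 genes are uncertain, as reads of similar paralogs may be placed on the wrong gene. Only the Zscan4 promoters were compared in sequence here.

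Ranked by reads gained in place of fold, long genes that were already active came first. Ccny, a cyclin Y gene (chr18:9314044-9450150), gave 12264, 12586 and 13244 scaled reads at 48 h, against 4885, 5393 and 4912 at 0 h, for a log2 change of 1.33 (SE 0.12). Palld, the gene of the actin-binding protein palladin, gave 9424, 9707 and 9756 scaled reads at 48 h, against 3343, 3761 and 3373 at 0 h (1.46, SE 0.12). Plod2, a collagen lysyl hydroxylase gene, gave 7494, 7558 and 7798 scaled reads at 48 h, against 1461, 1563 and 1533 at 0 h (2.33, SE 0.12). Groups without overlap were a condition for naming these 3 genes. Senp6, a SUMO protease gene (0.98, SE 0.12), Ccdc85a (1.25, SE 0.12), the cytochrome P450 gene Cyp2b23 (2.06, SE 0.12), the scavenger receptor gene Colec12 (1.87, SE 0.12) and the helicase-like factor gene Hltf (1.39, SE 0.12) complete the 8 largest gains. Of the listed repeat copies, 2.52% overlapped a gene on its own strand and 19.8% on the other. No source used here says whether a gene's value includes reads of such copies.

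Genes with a risen LTR copy close by on their own strand held many up calls. With a called-up copy within 10 kb before the start on the gene's strand, 39 of 93 genes were called up (41.9%) and 16 down, beside 7.65% and 58.4% of all genes tested; with the copy on the opposite strand the counts were 14 and 21 of 71. A called-up copy inside the gene on its strand went with 40 up calls and 16 down calls of 79, and one on the opposite strand with 49 and 62 of 179. Where a tested LTR copy lay before the start on the gene's strand but was not itself called up, 5 of 255 genes rose (1.96%). With such a copy before the start on the opposite strand the share was 5.05%. Inside the gene it was 7.75% on its strand and 5.34% on the opposite strand. Copies and genes were called in the same libraries, so these shares are a description. Among genes with a 0 h mean of 10 or more, 23 of 76 with a risen copy before the start on their strand rose (30.3%). The differences between these shares were not tested. In all, 132 of the 1167 called-up genes had such a copy in one of these positions.

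Individual pairs show how copy and gene lay together. Nat8f2, an N-acetyltransferase family gene (chr6:85865422-85869137), gave 306, 374 and 365 scaled reads at 48 h, against 4.06, 2.5 and 6.0 at 0 h, for a log2 change of 6.13 (SE 0.20). An ERVB7_2B-LTR_MM copy ended 67 bp before it on the same strand, with 1 read at 0 h, so that the ratio was 167 (95% exact interval 29.7 to 6651). Next to it an ETnERV-int copy (chr6:85869830-85870944) gave 177, 201 and 201 scaled reads at 48 h, against 1.63, 2.5 and 3.43 at 0 h, so copy and gene were both near 0 at 0 h and above 100 at 48 h. Slc22a13, an organic anion transporter gene (chr9:119192978-119209105), rose by 6.23 (SE 0.18). An RLTR10E copy lay 476 bp before it, with a single read at 0 h, so that the ratio was 151 (26.7 to 6004), and an IAPEY5_I-int copy 896 bp before it was without reads at 0 h, and so at least 76.2-fold higher when set against 3 reads over the 0 h group. Cd209c, a C-type lectin gene (chr8:3940222-3946863), gave 737, 806 and 776 scaled reads at 48 h, against 3.25, 3.33 and 1.71 at 0 h. The MMERVK10C-int copy that overlaps it on the same strand (chr8:3946329-3951359) gave 1741, 2571 and 2635 scaled reads at 48 h, against 43.1, 47.4 and 3.43 at 0 h (6.75, SE 0.72), with 1 library at 0 h far below the other 2. Before Akr1c21, 5 copies on its strand were called up, the one with most signal being an RLTR1B-int copy (chr13:4569025-4571818) at 187, 189 and 174 scaled reads at 48 h, against 5.69, 1.66 and 6.0 at 0 h. Dpep1 had a MMERVK10D3_I-int copy 8289 bp before it, at 228 ± 16.1 scaled reads at 48 h and 2.25 ± 1.95 at 0 h. Rdh16, a retinol dehydrogenase gene, had an IAPEY3-int copy 6778 bp before it, at 40.9 ± 7.53 scaled reads at 48 h and 1.92 ± 1.70 at 0 h. Within the unit listed as Mir467e an MMETn-int copy (chr1:10817669-10822061) on the same strand gave 1376, 1315 and 1164 scaled reads at 48 h, against 64.2, 91.5 and 87.4 at 0 h, while the whole unit gave 1162, 1297 and 1266 scaled reads at 48 h, against 66.7, 78.2 and 72.9 at 0 h. In 48 h replicates 1 and 2 the MMETn-int copy gave more than the whole unit, so its reads cannot all be part of the unit's value. In Clec2g and Ceacam2 every risen copy found lay on the opposite strand. Reads of near-identical copies can be placed on the wrong copy, and no source used here says how reads matching several places were treated.

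Genes of the 2-cell stage, the stage when the mouse embryo first transcribes its genome, rose as a group. Of 34 listed genes in the table, 24 were tested, and 22 rose and 2 fell, around a median log2 change of 3.97, beside -0.37 over all genes. Of all tested genes 7.65% were called up and 58.4% down. Of the 24 listed genes, 15 could pass the minimum only through their later values: 9 had a 0 h mean of 10 or more, of which 7 rose and 2 fell, around a median of 2.64. Of all 15015 genes with such a mean at 0 h, 965 rose (6.43%) and 8904 fell. Zscan4b gave 281, 342 and 327 scaled reads at 48 h, against 7.32, 3.33 and 4.29 at 0 h, and Zscan4d 384, 454 and 423 scaled reads at 48 h, against 10.6, 11.6 and 16.3 at 0 h. Zfp352, a zinc finger gene of the 2-cell embryo, gave 111, 113 and 145 scaled reads at 48 h, against 2.44, 4.16 and 0.857 at 0 h (5.26, SE 0.32). The arginase gene Arg2 (3.20, SE 0.21), the nuclear body gene Sp110 (2.64, SE 0.23) and Tmem92 (3.70, SE 0.30) rose from low values as well. P4ha2, a collagen prolyl hydroxylase gene that was already active at 0 h, rose by 0.80 (SE 0.14). Pramel7, a gene of early embryos and naive stem cells, went the other way, with 14.8, 14.7 and 12.2 scaled reads at 48 h, against 65.8, 94.0 and 71.2 at 0 h (-2.38, SE 0.22), and Zfp750 had a log2 change of -0.53 (SE 0.15) that was called on the deposited scale only.

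The Zscan4 promoters are shown because these 4 genes moved together and are paralogs whose starts are nearly the same. Sequences are from RefSeq, GRCm38.p6, 5′ to 3′ on the gene's strand, with TATAAAA in capitals, which lies between 31 and 65 bp before the annotated starts.
Zscan4b, chr7:10905036-10905161, minus strand: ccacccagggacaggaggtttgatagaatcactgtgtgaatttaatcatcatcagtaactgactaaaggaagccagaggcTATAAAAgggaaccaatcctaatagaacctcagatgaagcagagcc
Zscan4c, chr7:11005611-11005736, plus strand: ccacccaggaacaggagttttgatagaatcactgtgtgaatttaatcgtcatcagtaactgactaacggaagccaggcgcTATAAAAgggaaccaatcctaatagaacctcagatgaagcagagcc
Zscan4d, chr7:11166168-11166293, minus strand: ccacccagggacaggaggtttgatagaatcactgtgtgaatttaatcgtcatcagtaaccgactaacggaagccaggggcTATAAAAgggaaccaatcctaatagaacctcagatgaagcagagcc
Zscan4f, chr7:11397804-11397929, plus strand: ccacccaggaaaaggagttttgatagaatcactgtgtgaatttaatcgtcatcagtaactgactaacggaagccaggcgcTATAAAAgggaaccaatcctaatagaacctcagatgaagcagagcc
Between 119 and 125 of the 126 positions were identical in the 6 pairs. The letters TATAAAA, searched on both strands, were in 3.53% of 14837 promoter windows of 300 bp and in all 4 of these. The 4 genes had log2 changes between 4.95 and 5.78.

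Germline genes moved in both directions, while 7.65% of all tested genes were called up and 58.4% down (29.8% and 29% rescaled). Of the 48 listed genes present, 37 were tested, and 18 rose and 11 fell, around a median of 0.22. After rescaling 23 were up and 8 down. Slc25a31, the testis form of the mitochondrial ADP/ATP carrier, rose most, with 64.2, 66.6 and 63.4 scaled reads at 48 h, against 17.1, 20.0 and 7.72 at 0 h (2.14, SE 0.20). Dazl, an RNA-binding protein gene of germ cells, gave 374, 381 and 377 scaled reads at 48 h, against 105, 109.8 and 93.4 at 0 h (1.87, SE 0.14). Stk31, a kinase and Tudor-domain gene, gave 2879, 2983 and 3102 scaled reads at 48 h, against 1101, 1176 and 942 at 0 h (1.48, SE 0.12). The piRNA pathway genes Mael (1.45, SE 0.13) and Mov10l1 (1.29, SE 0.13), the testis bromodomain gene Brdt (1.39, SE 0.15) and the TFIID subunit paralog Taf7l (1.35, SE 0.19) rose, as did Tex101 (1.84, SE 0.21), Tex15 (1.21, SE 0.13) and Tex11 (1.00, SE 0.13). Genes of the synaptonemal complex differed: Sycp2 rose by 1.30 (SE 0.17) and Sycp1 by 0.35 (SE 0.13), Sycp3 did not pass on the deposited scale (0.16, SE 0.15), and Syce1 was lower (-0.72, SE 0.16). Sycp1 lost its call without 48 h replicate 3 (0.33) or 0 h replicate 1 (0.28). The Piwi genes were lower at 48 h, Piwil2 at 566 ± 47.7 scaled reads at 48 h, against 943 ± 41.9 at 0 h (-0.74, SE 0.13) and Piwil4 at 1.48, 1.55 and 0.764 scaled reads at 48 h, against 15.4, 24.1 and 19.7 at 0 h (-3.20, SE 0.37). The meiotic cohesin genes Smc1b (-0.73, SE 0.13) and Rec8 (-0.50, SE 0.19) and the oocyte genes Zp3 (-0.81, SE 0.17) and Gdf9 (-1.34, SE 0.32) were also called down, that of Rec8 on the deposited scale only and not without 48 h replicate 1 (-0.46) or 0 h replicate 2 (-0.36).

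Many germline promoters hold the E-box CACGTG, which is known as the binding sequence of MGA and MAX in the PRC1.6 repressor complex of embryonic stem cells. Searched on both strands (the motif is its own reverse complement), it was in 9.06% of the 14837 promoter windows of 300 bp that matched a gene of the table, and in 8.78% of the 843 called-up genes with a window. Among germline genes with a window, it was in 10 of the 16 that rose and in 6 of the 16 that did not rise. Of the 8 that fell, all among those 16, 1 had these letters. Dazl, Tex101 and Dpep3 rose without these letters in their window. A match is a description of the sequence, and binding was not measured. The 6 germline genes with an E-box that rose most are shown from RefSeq, GRCm38.p6, 5′ to 3′ on the gene's strand, with CACGTG in capitals and up to 30 bp on each side of it.
Slc25a31, chr3:40708748-40708813, plus strand: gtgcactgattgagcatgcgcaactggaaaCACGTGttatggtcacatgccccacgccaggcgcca
Stk31, chr6:49395454-49395519, plus strand: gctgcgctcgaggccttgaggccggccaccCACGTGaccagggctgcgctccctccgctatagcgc
Mael, chr1:166238932-166238994, minus strand: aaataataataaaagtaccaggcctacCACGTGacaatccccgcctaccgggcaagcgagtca
Brdt, chr5:107331086-107331151, plus strand: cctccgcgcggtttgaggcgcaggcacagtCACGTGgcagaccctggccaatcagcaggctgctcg
Taf7l, chrX:134476504-134476569, minus strand: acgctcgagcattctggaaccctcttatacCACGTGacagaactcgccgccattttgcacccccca
Mov10l1, chr15:88982744-88982783, plus strand: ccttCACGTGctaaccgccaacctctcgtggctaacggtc
The motif begins 49 bp before the annotated start in Taf7l and 246 bp before it in Mov10l1, with the others between. In all 6 genes each 48 h library was above each 0 h library, beside 79.2% of all tested genes without overlap of the groups.

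Most pluripotency genes were lower at 48 h, around a lower median than that of all genes. All 28 listed genes had a call, 3 up and 25 down, beside 7.65% up and 58.4% down over all tested genes. Their median log2 change was -0.72 beside -0.37 over all genes. After rescaling 4 were up and 20 down (median -0.36), beside 29.8% and 29% of all tested genes. Pou5f1, the OCT4 gene (chr17:35506032-35510777), gave 437, 485 and 462 scaled reads at 48 h, against 969, 1006 and 946 at 0 h, for a log2 change of -1.08 (SE 0.13), which was -0.71 after rescaling. Nr0b1, a nuclear receptor gene of the stem cell network (chrX:86191775-86195946), fell most, with 42.8, 35.6 and 39 scaled reads at 48 h, against 179.6, 214 and 192 at 0 h (-2.29, SE 0.15). Fgf4, the growth factor that OCT4 and SOX2 are known to activate, gave 236, 259 and 246 scaled reads at 48 h, against 784, 909 and 805 at 0 h (-1.75, SE 0.13). In each of these 3 genes the highest 48 h library was below the lowest at 0 h, beside 79.2% of all tested genes without overlap of the groups. Esrrb (-0.99, SE 0.12), Tfcp2l1 (-1.09, SE 0.12), Nr5a2 (-0.94, SE 0.12), Tbx3 (-0.99, SE 0.13) and Klf4 (-0.87, SE 0.13), transcription factors of the naive state, and the LIF receptor gene Lifr (-0.99, SE 0.12) fell by amounts between those of Sox2 (-0.69, SE 0.13) and Fgf4. Lin28a (-0.36, SE 0.12), Sall4 (-0.43, SE 0.12), Socs3 (-0.38, SE 0.13) and Prdm14 (-0.48, SE 0.15) were called down on the deposited scale only. Zfp42, which encodes the marker REX1, went the other way with 2862, 2987 and 2844 scaled reads at 48 h, against 1533, 1677 and 1597 at 0 h (0.86, SE 0.12), and Dppa3 (0.45, SE 0.15) and Fbxo15 (0.31, SE 0.12) rose as well. The call of Dppa3 was lost without 48 h replicate 1 (0.37) or 0 h replicate 1 (0.36), and that of Fbxo15 without 48 h replicate 2 (0.31) or 3 (0.29) or 0 h replicate 1 (0.27) or 3 (0.29). Dppa4 changed sign with the scale, at -0.27 (SE 0.13) on the deposited one and 0.09 after rescaling, and its call was lost without any 1 of the 6 libraries (between -0.31 and -0.24).

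Genes of the epiblast state that follows naive pluripotency were mostly lower too. Of all tested genes 7.65% were called up and 58.4% down, and 29.8% and 29% after rescaling. Of 19 genes of the formative and primed epiblast, 1 rose and 13 fell, with 5 up and 11 down after rescaling. Otx2, a homeobox factor of the epiblast, was the one that rose (0.77, SE 0.13). Fgf5 gave 130.0, 125 and 115 scaled reads at 48 h, against 282, 318 and 297 at 0 h (-1.27, SE 0.15), and Bcl11a (-1.46, SE 0.13), Etv4 (-1.11, SE 0.13), Wnt8a (-0.97, SE 0.16) and Zic2 (-0.78, SE 0.13) fell on both scales, while Pou3f1 did not pass on the deposited scale (0.08, SE 0.15). In the FGF and ERK pathway 3 of 27 genes rose and 18 fell, with 7 up and 13 down after rescaling. Its ligand genes Fgf17, Fgf15 and Fgf8 fell on both scales: Fgf17 gave 11.8, 11.6 and 13.0 scaled reads at 48 h, against 103, 97.3 and 101 at 0 h (-2.95, SE 0.20), Fgf15 was at -1.46 (SE 0.23) and Fgf8 at -1.44 (SE 0.20). Rasgrp1, a Ras activator (chr2:117279993-117342877), gave 18.5, 21.7 and 25.2 scaled reads at 48 h, against 185, 219 and 183 at 0 h (-3.11, SE 0.16), and Rasgrp2 was at -1.29 (SE 0.14). Targets of the pathway divided. The feedback inhibitor gene Spry4 (-0.89, SE 0.12) and the factor genes Etv5 (-0.51, SE 0.12) and Myc (-0.66, SE 0.15) were lower, the immediate early gene Egr1 (0.56, SE 0.13) and Phlda1 (0.51, SE 0.16) were higher, and the phosphatase genes Dusp6 (0.16, SE 0.13) and Dusp4 (0.18, SE 0.13) did not pass on the deposited scale. Egr1 lost its call without 48 h replicate 2 (0.32) and Phlda1 without 0 h replicate 3 (0.36).

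**Figure D3:**
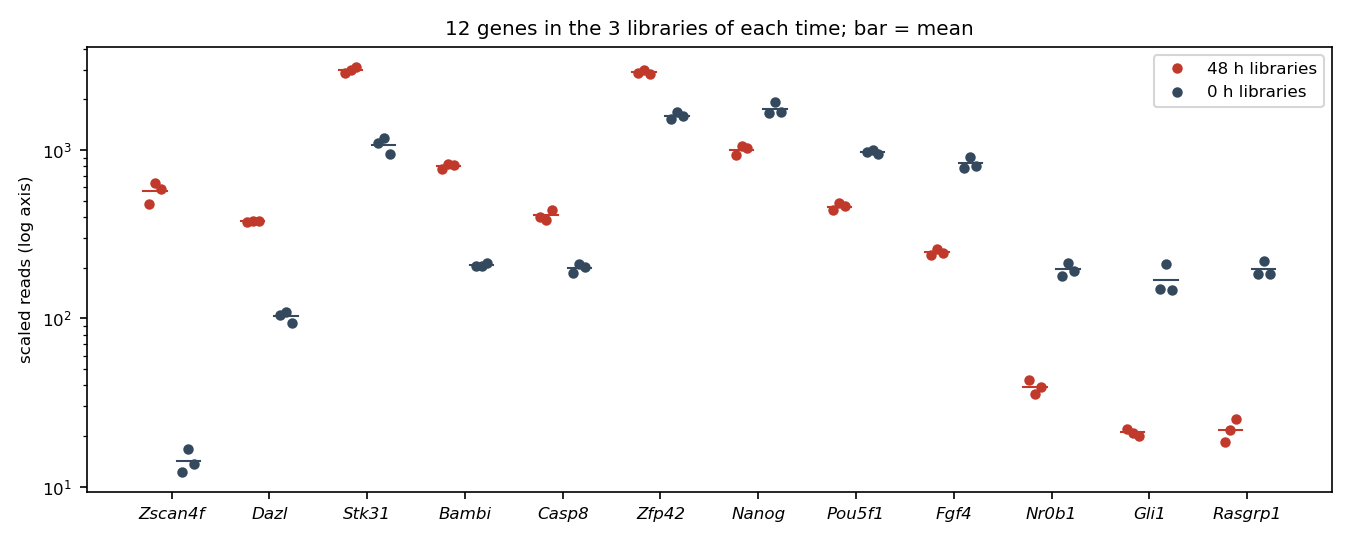
Scaled reads (y axis, log scale) of 12 genes in each of the 3 libraries at 48 h (red, left) and the 3 at 0 h (dark blue, right), with the mean as a bar. From Zscan4f to Zfp42 each 48 h point lies above each 0 h point, and from Nanog to Rasgrp1 each lies below, with Zscan4f between 479 and 641 at 48 h and Rasgrp1 between 18.5 and 25.2.

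Hedgehog pathway genes gave 0 rises and 9 falls among 15 tested, with 6 up and 6 down after rescaling. The share of falls was close to the 58.4% of all tested genes; it is the size of the falls in single members that is described here. Gli1, Hhip and Ptch1 are known as targets of the pathway itself. Gli1, its transcription factor and standard readout (chr10:127329882-127341579), gave 22.2, 20.9 and 19.9 scaled reads at 48 h, against 149.6, 209.6 and 147 at 0 h, for a log2 change of -2.93 (SE 0.16). Hhip, which encodes an inhibitor that binds the ligand, gave 51.0, 60.4 and 61.9 scaled reads at 48 h, against 209, 249 and 191 at 0 h (-1.88, SE 0.15). Gli2 gave 1869, 1891 and 1918 scaled reads at 48 h, against 6532, 7387 and 6333 at 0 h (-1.83, SE 0.12). The receptor gene Ptch1 was lower on both scales (-0.81, SE 0.12). The groups did not overlap in these 4 genes, as in 79.2% of all tested genes. The transducer gene Smo (0.05, SE 0.14), the repressor gene Gli3 (0.16, SE 0.12) and the co-receptor genes Boc (0.27, SE 0.13) and Cdon (-0.16, SE 0.13) did not pass on the deposited scale.

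In the TGF beta, Nodal and activin pathway 3 genes rose and 12 fell among 24, with 11 and 10 after rescaling, beside 7.65% up and 58.4% down over all tested genes, and 29.8% and 29% after rescaling. These shares over all genes are those against which the BMP, Wnt and Notch counts stand too. Inhbb, which encodes an activin subunit, gave 22.2, 22.5 and 21.4 scaled reads at 48 h, against 134, 135 and 115 at 0 h (-2.48, SE 0.17), and Nodal (-0.74, SE 0.13) and the inhibitor gene Smad7 (-0.76, SE 0.12) were lower. The BMP pathway had 3 rises and 4 falls among 16 genes, with 11 and 1 after rescaling. Bambi, a decoy receptor that dampens BMP and TGF beta signals, gave 767, 821 and 816 scaled reads at 48 h, against 204, 204 and 213 at 0 h (1.95, SE 0.13). The BMP target gene Id1 was higher (0.55, SE 0.15), Id3 did not pass on the deposited scale (0.14, SE 0.13), and the inhibitor gene Smad6 was lower (-0.70, SE 0.13). Of 27 Wnt pathway genes 4 rose and 11 fell, with 14 and 6 after rescaling. The Wnt targets Sp5 (1.42, SE 0.17) and Axin2 (0.30, SE 0.13) and the ligand gene Wnt6 (1.39, SE 0.16) rose, the call of Axin2 being lost without 48 h replicate 2 (0.27) or 3 (0.29) or 0 h replicate 1 (0.27) or 3 (0.26). Notum, which encodes an enzyme that inactivates Wnt ligands, gave 40.6, 48.0 and 54.3 scaled reads at 48 h, against 163, 164 and 141 at 0 h (-1.69, SE 0.16). The receptor gene Fzd5 fell too (-1.24, SE 0.13). The Notch list gave 1 rise and 12 falls among 17, with 4 and 7 after rescaling. Its ligand genes differed, Dll1 being higher (0.48, SE 0.16) and Jag1 (-0.85, SE 0.13), Jag2 (-0.81, SE 0.13) and Dll3 (-1.07, SE 0.20) lower, and the shared transcription factor gene Rbpj was at -0.66 (SE 0.12). The rise of Dll1 was not called without 0 h replicate 1 (0.37).

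Genes of growth and metabolism were lower at 48 h, some lists beyond the shift of all genes. Calls over all tested genes were 7.65% up and 58.4% down, and 29.8% and 29% after rescaling. All 35 genes of ribosomal DNA transcription and ribosome assembly were called down, around a median of -0.62, and 29 were still down after rescaling (median -0.26). Rrp9, a protein of the U3 particle, was at -1.06 (SE 0.13), and Polr1b, the second subunit of RNA polymerase I, gave 1036, 1064 and 1087 scaled reads at 48 h, against 1677, 1936 and 1719.7 at 0 h (-0.74, SE 0.12). Nop56 (-0.79, SE 0.12) and Fbl (-0.48, SE 0.13), core proteins of the methylation guide particles, differed in size of change, and Npm1, a nucleolar chaperone, was at -0.48 (SE 0.12). In cholesterol synthesis 22 of 24 genes were down and 1 up, with 16 and 2 after rescaling. Fdps, the farnesyl diphosphate synthase gene, was lower (-0.87, SE 0.13). Idi1, the isopentenyl isomerase gene, was the exception with 849, 965 and 914 scaled reads at 48 h, against 469, 461 and 445 at 0 h (0.99, SE 0.13). Glycolysis genes gave 0 rises and 17 falls of 24, with 4 up and 10 down after rescaling, with Ldha at -0.95 (SE 0.13) and Gapdh at -0.60 (SE 0.12). The list of RNA polymerase II and elongation factors lay close to all genes: 32 of 41 were down and 1 up, around a median of -0.40, with 11 and 8 after rescaling. Its largest subunit gene Polr2a was at -0.43 (SE 0.12), and -0.07 with no call after rescaling.

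Cell cycle and DNA replication genes gave 3 rises and 26 falls of 37, with 8 and 13 after rescaling. All tested genes gave 7.65% up and 58.4% down calls, and 29.8% and 29% after rescaling. The D-type cyclin gene Ccnd1 gave 295, 335 and 328 scaled reads at 48 h, against 823, 880.1 and 799 at 0 h (-1.38, SE 0.13), and Ccnd2 (-1.25, SE 0.17) and Ccne1 (-0.76, SE 0.13) were lower. The 3 that rose encode inhibitors of cyclin-dependent kinases, Cdkn2b (0.53, SE 0.18), Cdkn2a (0.40, SE 0.14) and Cdkn1a (0.36, SE 0.13). Each of these calls was lost without a single library: Cdkn2b without 48 h replicate 2 (0.42) or 0 h replicate 2 (0.41), Cdkn2a without 0 h replicate 1 (0.30) and Cdkn1a without 48 h replicate 2 (0.31). Mki67, the proliferation marker, did not pass on the deposited scale (-0.19, SE 0.12).

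Among stress and defence genes Casp8, Atf3 and Gbp2 rose by 2-fold or more, while the lists as a whole held calls in both directions. All tested genes had 7.65% up and 58.4% down calls, and 29.8% and 29% after rescaling. Of 26 p53 genes 4 rose and 9 fell, with 15 and 4 after rescaling, so the balance turned with the scale; Cdkn1a gave 1137, 1332 and 1231 scaled reads at 48 h, against 945, 958 and 968 at 0 h, Btg2 rose by 0.43 (SE 0.13) and Pmaip1 by 0.36 (SE 0.13), Mdm2 did not pass on the deposited scale (-0.01, SE 0.12), and Trp53 itself was at -0.57 (SE 0.12). Without 48 h replicate 2 Pmaip1 was at 0.31 with no call. Among apoptosis regulators 2 of 21 rose and 9 fell, with 9 and 4 after rescaling. Casp8, the initiator caspase of death receptors, gave 402, 386 and 438 scaled reads at 48 h, against 185, 210.4 and 202 at 0 h (1.03, SE 0.13). In the unfolded protein and integrated stress responses 1 of 30 rose and 19 fell, with 8 and 10 after rescaling. The riser was Atf3, a stress-induced factor, with 502, 605 and 523 scaled reads at 48 h, against 209.7, 239.6 and 229 at 0 h (1.26, SE 0.13), while the targets Trib3 (-0.81, SE 0.13) and Slc7a11 (-1.22, SE 0.16) were lower. Interferon, antiviral and RNA sensing genes gave 1 rise and 18 falls among 28 tested, with 3 and 14 after rescaling. Their median log2 change was -0.62, and -0.26 after rescaling, beside -0.37 and -0.008 over all genes. Gbp2, an interferon-induced GTPase, was the one that rose, with 215, 251 and 272 scaled reads at 48 h, against 78.8, 84.8 and 84.9 at 0 h (1.55, SE 0.15). The double-stranded RNA sensor gene Ifih1 did not pass (0.02, SE 0.23), and the other sensor gene Ddx58 (-0.56, SE 0.13), the adaptor gene Mavs (-0.89, SE 0.14) and the editing enzyme gene Adar (-0.65, SE 0.13) were lower on both scales.

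Genes of heterochromatin and silencing factors were mostly lower at 48 h, around a median close to that of all genes. Setdb1 (-0.21, SE 0.13) and Suv39h1 (-0.08, SE 0.13) did not pass on the deposited scale and were called up after rescaling, at 0.15 for Setdb1 and 0.28 for Suv39h1. Suv39h2, labelled -/-, still gave 749.6, 882 and 779 scaled reads at 48 h, against 1044, 1175 and 1055 at 0 h; reads summed over a whole gene do not check a deletion of part of it, and agents that act on protein are not checked by RNA. Of 37 other heterochromatin and silencing genes, a list that also holds Tet1 and Tet2, 0 rose and 29 fell, with 9 and 14 after rescaling. Their median was -0.41, beside -0.37 over all tested genes, of which 7.65% rose and 58.4% fell (29.8% and 29% after rescaling). Trim28, the corepressor that brings SETDB1 to retroviruses, gave 1819.7, 2153 and 2033 scaled reads at 48 h, against 3113, 3428 and 2958 at 0 h (-0.66, SE 0.12). The H3K9 dimethyltransferase gene Ehmt2 was at -0.71 (SE 0.13), the HP1 gene Cbx1 at -0.64 (SE 0.12) and Cbx5, another HP1 gene, at -0.30 (SE 0.12), the last with no call after rescaling or without 48 h replicate 1 (-0.27) or 2 (-0.31) or 0 h replicate 2 (-0.25). Dnmt3a lost its call without 0 h replicate 2 (-0.30). Tet2, a methylcytosine oxidase gene, gave 1643, 1669 and 1675 scaled reads at 48 h, against 4316, 4922 and 4340.4 at 0 h (-1.44, SE 0.12) and Tet1 was at -0.86 (SE 0.12), the lowest changes of the list. The DNA methyltransferase genes Dnmt1 (-0.49, SE 0.12), Dnmt3a (-0.36, SE 0.13) and Dnmt3b (-0.44, SE 0.12) were called down, of which Dnmt1 kept the call after rescaling. The SETDB1 partner genes Atf7ip (0.10, SE 0.12) and Atf7ip2 (0.09, SE 0.12) did not pass on the deposited scale.

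Markers of other cell types were checked in the same libraries. Their counts stand beside 7.65% up and 58.4% down over all tested genes, and 29.8% and 29% after rescaling. Of 15 tested fibroblast markers 8 rose and 1 fell (6 and 1 of the 13 with a 0 h mean of 10 or more), and the summed level of the 18 listed was 2166 to 2555 scaled reads at 48 h, against 1856 to 2122 at 0 h. Lum, a matrix proteoglycan gene, gave 31.8, 51.1 and 36.7 scaled reads at 48 h, against 3.25, 4.99 and 3.43 at 0 h (3.05, SE 0.30), and Thy1, a surface marker, went the other way with 2.95, 8.52 and 0.764 scaled reads at 48 h, against 18.7, 15.8 and 19.7 at 0 h (-2.23, SE 0.34); the part of such cells in other results was not tested. Trophectoderm markers gave 3 rises and 7 falls of 17 (6 and 1 after rescaling), with the keratin genes Krt18 (1.00, SE 0.13) and Krt8 (0.71, SE 0.13) higher and Cdx2, a defining factor, at 11.1 ± 1.90 scaled reads at 48 h, against 19.2 ± 5.48 at 0 h, with overlapping groups. Primitive endoderm markers gave 1 rise and 6 falls of 14 (7 and 5 after rescaling), with Lama1 at -1.71 (SE 0.13) and the defining factors Gata4 (-0.03, SE 0.15) and Gata6 (0.19, SE 0.22) not passing on the deposited scale. Germ layer genes gave 4 rises and 5 falls of 15 (7 and 2 after rescaling), the homeobox gene Msx1 being highest (1.23, SE 0.28) and Kdr, the VEGF receptor gene, lowest (-1.29, SE 0.20).

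**Figure D4:**
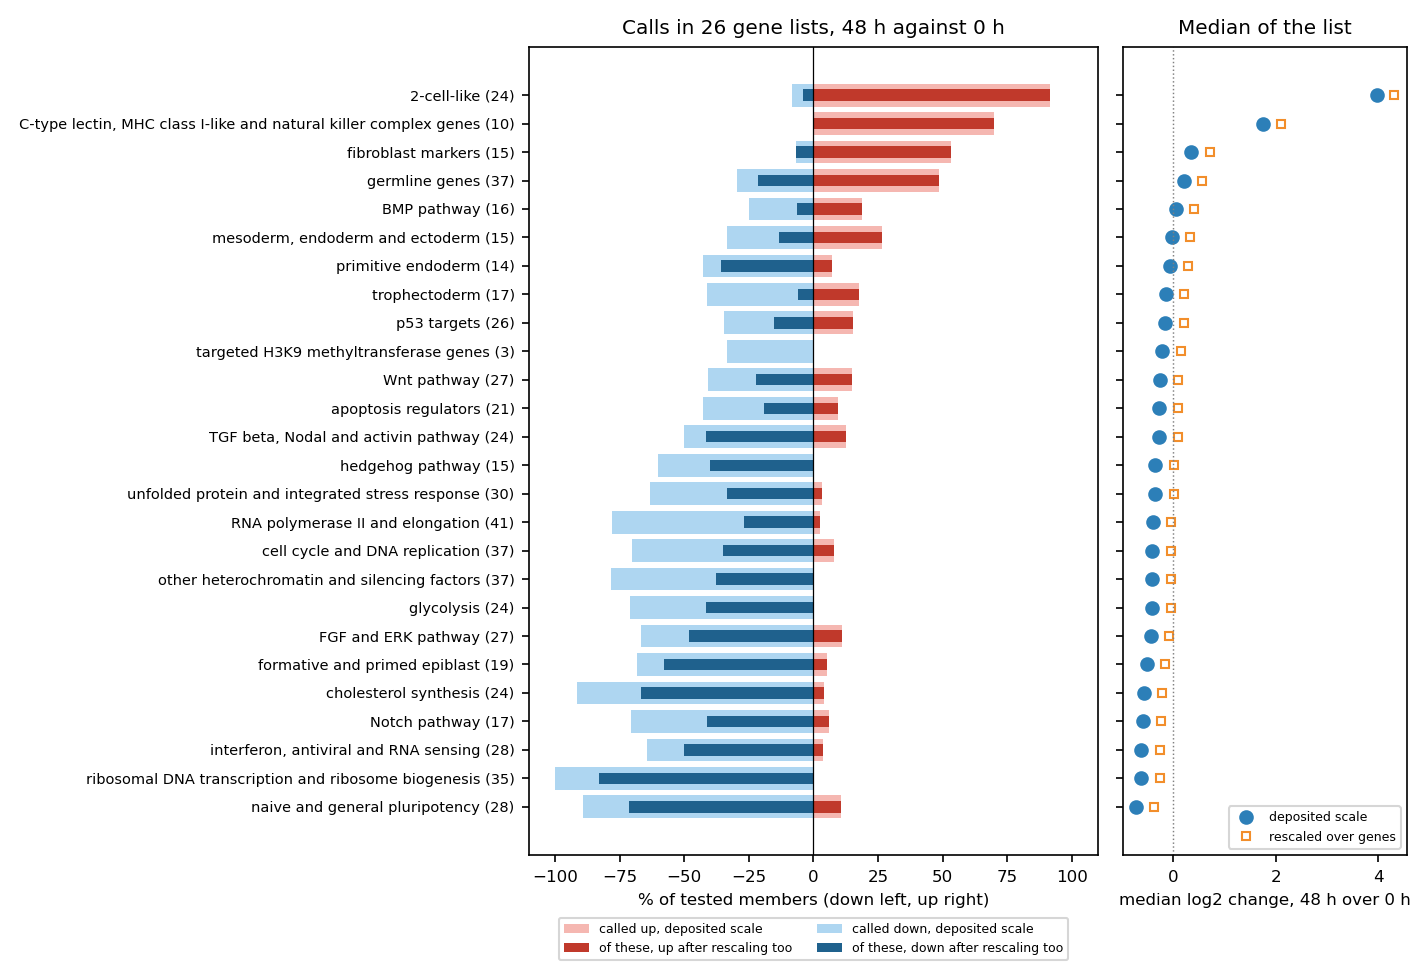
Left, percent of the tested members of each gene list (number in brackets) called down (to the left) or up (to the right) at 48 h against 0 h on the deposited scale (pale bars), and the part also called in that direction after rescaling over genes (dark bars); right, the median log2 change of each list on the deposited scale (filled circles) and after rescaling (open squares). The 2-cell-like list has the highest median, 3.97 (2.64 over the 9 members with a 0 h mean of 10 or more), and the pluripotency list the lowest, -0.72, while all genes tested have -0.37.

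The genes that fell most had log2 changes beyond -2 and included 4 members of the lists, Rasgrp1, Gli1, Inhbb and Nr0b1. The 20 that fell most had log2 changes between -3.48 and -2.14 under the naming rule, which admits only groups without overlap. Aoah, which encodes an enzyme that deacylates bacterial lipopolysaccharide (chr13:20794113-21024254), gave 117, 112 and 118 scaled reads at 48 h, against 1248, 1422 and 1237 at 0 h (-3.48, SE 0.13). Fam196b (-3.29, SE 0.18), the thyrotropin-releasing hormone gene Trh (-2.87, SE 0.17), the guanine nucleotide exchange factor gene Mcf2 (-2.69, SE 0.13), the autotaxin gene Enpp2 (-2.38, SE 0.15), Sytl3 (-2.36, SE 0.15) and Stk33 (-2.33, SE 0.16) were among the first 10. Cobl, an actin nucleator gene (chr11:12236676-12464960), gave 822, 800.2 and 826 scaled reads at 48 h, against 3565, 4020.2 and 3578 at 0 h (-2.19, SE 0.12). Tek, the angiopoietin receptor gene, gave 98.2, 83.7 and 102 scaled reads at 48 h, against 406, 527 and 453 at 0 h (-2.27, SE 0.13), and Nphs1, the nephrin gene, 74.6, 84.4 and 77.9 scaled reads at 48 h, against 332, 393 and 330.1 at 0 h (-2.14, SE 0.14). Dock2, a Rac activator of blood cells (-2.25, SE 0.15), the carbonic anhydrase gene Car12 (-2.20, SE 0.17), Egfl6 (-2.27, SE 0.17), Igsf21 (-2.30, SE 0.16) and Gdpd4 (-2.22, SE 0.17) were among the second 10 with Nr0b1. Ranked by reads lost, large genes of chromatin and signalling led: Jarid2, a PRC2 partner gene, gave 21667, 21453 and 22328 scaled reads at 48 h, against 31346, 36665 and 32419.8 at 0 h (-0.61, SE 0.12). Kat6b, a histone acetyltransferase gene, gave 11299, 11092 and 11939 scaled reads at 48 h, against 20547, 24600.1 and 21060.0 at 0 h (-0.94, SE 0.12), and Enox1 5279, 5384 and 5487 scaled reads at 48 h, against 12684, 14543 and 12657 at 0 h (-1.30, SE 0.12). Msi2 (-0.66, SE 0.12), Klhl13 (-0.61, SE 0.12), Tle4 (-0.75, SE 0.12), Enah (-0.82, SE 0.12) and Ptprg (-0.59, SE 0.12) completed the 8 largest losses, a call on both scales being a condition of the naming. The 130 genes whose call turned from down to up with rescaling had small changes, and the largest of these by signal were Utrn (-0.28 and 0.08), Trim71 (-0.28 and 0.08), Suz12 (-0.28 and 0.08) and Vps13b (-0.27 and 0.10), each on the deposited scale and after rescaling; with the libraries left out singly, every one of these 4 lost its call in at least 5 of the 6 cases.

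Among repeats, a few retroviral families carried most of the gain. Net of losses, the repeat copies gained 803547 scaled reads at 48 h over 0 h, of which MMERVK10C-int and its LTR RLTR10C held 63.3%. MMERVK10C-int, the internal part of an ERVK retrovirus, gave 474511, 523370 and 486152 scaled reads at 48 h, against 8871, 9687 and 8912 at 0 h, for a log2 change of 5.76 (SE 0.12). The 227 copies that gained most held 50% of the gain summed over all 135812 copies that gained, and 152 of them were MMERVK10C-int. IAPEz-int, the internal part of the intracisternal A particle, gave 75245, 84676 and 80530 scaled reads at 48 h, against 4660, 4933 and 4844 at 0 h (4.06, SE 0.12). ETnERV-int, of the early transposon group, gave 50542, 54939 and 52334 scaled reads at 48 h, against 11692, 13393 and 13026 at 0 h (2.05), and MMETn-int 104273, 114236 and 113876 scaled reads at 48 h, against 52513, 56325 and 52739 at 0 h (1.04). Every 48 h library of these families was above every 0 h one. MMERGLN-int, an ERV1 family, gave 31473, 36305 and 32930 scaled reads at 48 h, against 5417, 6012 and 4935 at 0 h (2.62). GSAT_MM, the major satellite of pericentromeric heterochromatin, rose by 3.23 (SE 0.12), MERVL-int, the retrovirus of the 2-cell embryo, by 3.06 and the young LINE family L1Md_T by 0.38 (limma adjusted p 0.00685). In none of these families did the libraries of the times overlap, beside 49.1% of all tested families without overlap.

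The 6 families that lost most reads were all SINEs, and among these B2_Mm1a, B2_Mm1t and B2_Mm2 had the lowest log2 changes. Of 34 SINE families 0 rose and 7 fell on the deposited scale, while after rescaling 25 had an up call and 4 a down call. Rescaling thus turned the balance of the SINE family calls. Over all tested families 23.4% were called up and 4.91% down, and 64.5% and 1.42% after rescaling. B2_Mm1a, a tRNA-derived SINE of the B2 group, gave 15200, 16153 and 16544 scaled reads at 48 h, against 25801, 28729 and 29037 at 0 h, for a log2 change of -0.80 (SE 0.12) and -0.44 after rescaling. B2_Mm1t was at -0.67 and -0.31, and B2_Mm2 at -0.54 and -0.18, all called on both scales. B1_Mus1 (-0.37, and -0.01 rescaled) and B1_Mus2 (-0.44, and -0.08 rescaled), of the 7SL-derived B1 group, were called on the deposited scale only. B3, listed with the B2 group, did not pass on either (-0.29 and 0.08). Counts of single copies stand beside 26% up and 12.3% down over all tested copies, and 31.4% and 5.3% after rescaling. Of all 9965 copies with a 0 h mean of 10 or more, 755 rose and 1660 fell. Of 4914 tested SINE copies 134 rose and 1052 fell, around a median of -0.34, with 312 and 493 after rescaling. LTR copies gave 3009 rises and 381 falls among 5587; among the 2962 with a 0 h mean of 10 or more 575 rose and 381 fell (median -0.16). LINE copies gave 329 rises and 144 falls among 2121, but 103 rises and 144 falls among the 1609 with such a mean at 0 h (median -0.11). DNA transposon copies gave 12 and 23 among 291, and 4 and 23 among the 260 with such a mean.

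Outside MMERVK10C-int and RLTR10C, 5 single copies gained most. An MMERGLN-int copy (chr1:83981537-83989092, minus strand) gave 6461, 7459 and 6722 scaled reads at 48 h, against 75.6, 111 and 100.3 at 0 h, for a log2 change of 6.17 (SE 0.31), and the nearest gene, Pid1, lies 47201 bp away. A GSAT_MM copy (chr2:98666544-98667332) gave 3633, 3391 and 3322 scaled reads at 48 h, against 145, 148 and 139.7 at 0 h (4.57, SE 0.16). Another MMERGLN-int copy (chr10:17318562-17324233) gave 3103, 3082 and 2600.3 scaled reads at 48 h, against 88.6, 49.9 and 61.7 at 0 h. An MMETn-int copy on the X chromosome (chrX:123397591-123403687) gave 2827, 2935 and 2885 scaled reads at 48 h, against 61.0, 82.3 and 99.4 at 0 h, and an MMERGLN-int copy 2371 bp from Rprd1a gave 2241, 2445 and 2317 scaled reads at 48 h, against 7.32, 35.8 and 29.1 at 0 h. All 5 had reads in each 0 h library and none had overlapping groups, beside 50.9% of all tested copies without overlap.

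Non-coding units, stretches of nascent RNA outside the annotated genes, were sorted by position. Over all tested units 29.3% were called up and 39.4% down, and 35.7% and 22% after rescaling. Of 2676 tested units that overlap an ERVK copy on their strand, 2081 rose and 305 fell, around a median log2 change of 3.98; of the 1242 with a 0 h mean of 10 or more 660 rose and 305 fell (median 0.53). They summed to 1157238 ± 45815 scaled reads at 48 h, against 396871 ± 12096 at 0 h. Units over other LTR copies gave 621 rises and 302 falls of 1173, but 241 rises and 302 falls among the 789 with a 0 h mean of 10 or more (median -0.22). Those away from LTR copies were lower in the main on the deposited scale. Units divergent from a gene start, the upstream antisense RNA of active promoters, gave 101 rises and 1227 falls of 2710 (median -0.41, and -0.06 rescaled), beside -0.37 for genes. Antisense units inside genes gave 285 and 1565 of 2921 (median -0.58, and -0.23 rescaled), and units just downstream of a gene 58 and 273 of 507 (-0.59 and -0.24). Other units within 10 kb of a gene had the lowest median, -0.64 (-0.29 rescaled; 260 and 956 of 1728). Those over 10 kb from any gene gave 1168 rises and 1440 falls of 3764 (median -0.21). After rescaling they gave 1463 up and 879 down calls (median 0.14). Their balance turned with the scale, as did that of all tested units. Of the 2948 units over 10 kb from any gene with a 0 h mean of 10 or more, 438 rose and 1440 fell on the deposited scale. No source used here gives the strand setting of the counting, so units on the strand opposite to a gene may hold some of its reads.

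**Figure D5:**
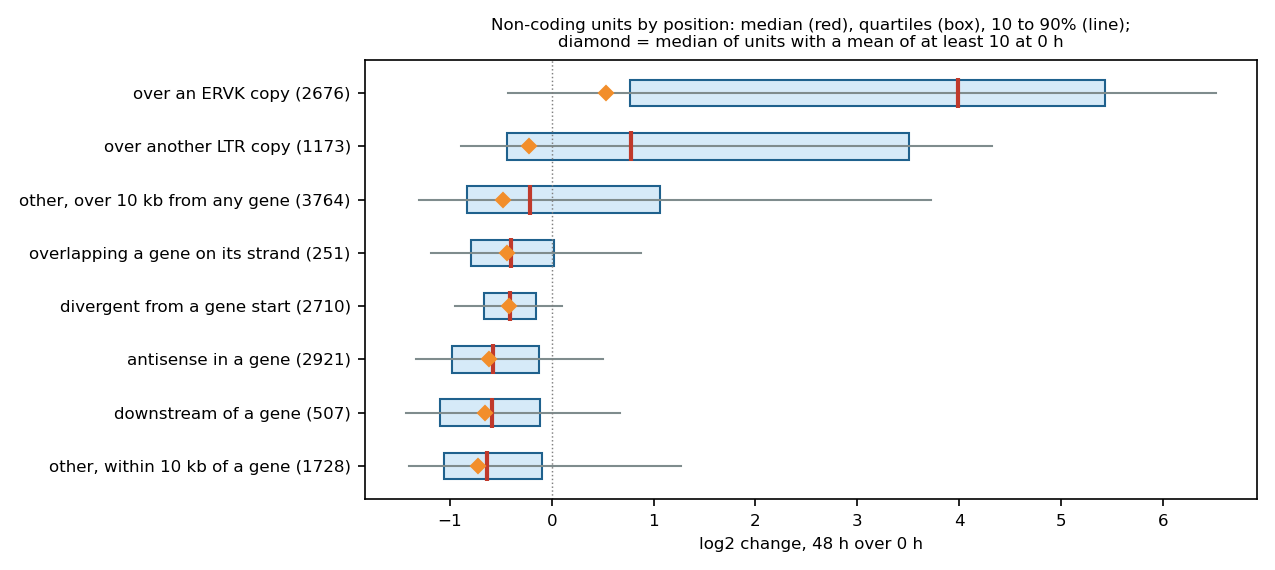
Log2 change at 48 h over 0 h (x axis) of the tested non-coding units by position (number in brackets), with the median in red, quartiles as a box and the 10 to 90% range as a line; diamonds give the median of the units with a 0 h mean of 10 or more. Units over ERVK copies have a median of 3.98, and 0.53 when they had to be present at 0 h, while every position away from LTR copies has a median below 0 on the deposited scale, which is the one drawn; after rescaling the units over 10 kb from any gene have a median of 0.14.

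Single non-coding units changed by more than any named gene. A unit at chr10:33891001-33898801, plus strand, had no reads at 0 h and 1415, 1509 and 1423 scaled reads at 48 h, at least 1737-fold higher when set against 3 reads over the 0 h group; it runs over an IAPLTR1_Mm copy, and the gene Rsph4a, 6310 bp away on its strand, rose by 1.11. The unit at chr17:18555801-18580801 over IAPLTR3-int and IAPLTR4 gave 3060.3, 3372 and 3154 scaled reads at 48 h, against 0.813, 2.5 and 2.57 at 0 h, for a log2 change of 10.14 (SE 0.22). It lies 926 bp from Vmn2r96 on the same strand, the gene with the largest rise. A unit of 85601 bp on chromosome 9 (chr9:36419001-36504601) over RLTR10E, MMERVK10C-int and MMERVK9C_I-int gave 5231, 5425 and 5221 scaled reads at 48 h, against 3.25, 1.66 and 9.43 at 0 h, and the nearest gene lies 131153 bp away. The unit at chr8:85302601-85309401 lies antisense in Orc6 with no LTR copy on its strand and gave 1563, 1642 and 1590.1 scaled reads at 48 h, against 1.63, 4.99 and 0 at 0 h (9.32), while Orc6, an origin recognition gene, did not pass (-0.11). The other 4 of the 8 that rose most, by 9.09 to 10.05, all lay over ERVK copies.

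Falling units changed less. The largest fall, at chr18:44366201-44368801, was to 1.48, 2.32 and 1.53 scaled reads at 48 h, against 39.8, 46.6 and 40.3 at 0 h (-3.97, SE 0.37). A unit at chr17:33570001-33602201, antisense to Myo1f and over an MTB copy, gave 17, 17.8 and 16.8 scaled reads at 48 h, against 208, 208 and 197 at 0 h (-3.50), and Myo1f, an unconventional myosin gene, fell with it (-1.59). Near Egfl6, one of the genes that fell most, a unit 10685 bp away on the same strand (chrX:166596401-166607201) gave 5.91, 7.75 and 3.82 scaled reads at 48 h, against 49.6, 86.5 and 69.4 at 0 h (-3.35). Inside Inpp4b, a phosphoinositide phosphatase gene, the unit at chr8:81892801-81898201 on the opposite strand and over an ORR1D2 copy gave 4.43, 2.32 and 0.764 scaled reads at 48 h, against 39.8, 31.6 and 46.3 at 0 h (-3.65), while the gene rose by 3.22. The unit at chr8:34078001-34090201, 220 bp from Dctn6, gave 14.8, 17.8 and 17.6 scaled reads at 48 h, against 155, 200.5 and 166 at 0 h (-3.30). Groups without overlap were a condition for naming the 8 units that fell most, and the other 3 had changes between -3.37 and -3.22.

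The authors' deposited table marks 571 genes up and 1031 down at 48 h, 7934 and 1055 repeat copies and 7036 and 2624 non-coding units. Of the genes so marked in the authors' deposited table, 445 and 964 were tested here, and limma called all of them in the same direction on both scales. Their smallest fitted changes were 0.96 up and 0.93 down in size, so the marks of the authors' deposited table hold changes of about 2-fold or more. For tested repeat copies, 3213 of 3218 marked up and 629 of 642 marked down in the authors' deposited table were called in the same direction, and none in the opposite one.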

How the data were processed

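Nascent RNA of 15 libraries was measured by TT-seq, and 6 of them were compared here. The submitters' processing notes name STAR 2.5.2a, DESeq2 and the build mm10 (GRCm38), without their order; no source used here gives the counting tool, the strand setting or the treatment of reads that match several places. A labelled yeast RNA was added as a spike-in, 1 µg for 110 µg of total RNA, per the labels' protocols. The values deposited by the authors are a signal per gene, repeat copy or non-coding unit, in which whole reads were divided by 1 size factor per library; 100% of the values came out whole within 0.05 of a read, and 1 read is worth 0.738 to 0.857. No source used here says how the size factors were computed.

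From these values log2(value + 1) was fitted with limma 3.58.1 (intensity trend, R 4.3.3) over all 15 libraries, with 48 h against 0 h as the contrast. Units with a mean of at least 10 were tested, p-values were two-sided and Benjamini-Hochberg adjusted within each class, and a call needs an adjusted p under 0.05. Fold changes on this scale understate those of units with few reads. Families are sums over their copies. Repeats are set beside genes by position within 10 kb. The fit was tested on simulated data. Alternatives were another pseudocount, other filters, 2 rescalings, edgeR 4.0.16 on recovered reads, the 6 libraries alone, a replicate block, and each library left out. Exact intervals and floors of 3 reads cover counting error only.

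Named are the 20 genes that rose and the 20 that fell most, the 8 that gained and the 8 that lost most reads, up to 4 genes per list and those the list turns on, 10 genes near risen LTR copies, the families and 5 copies that changed most, 8 non-coding units in each direction and 4 genes that turn with the scale. Genes named by a number or clone name were left out, as were those whose groups overlap or whose call is lost on rescaling. The genes named for their role, the lists and the comparison were chosen with earlier results of these data known. The replicate numbers did not pair the libraries. The other 9 libraries entered the fit for its spread and are not described. A few genes that these rules name are not reported here.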

Additional observations from a re-analysis of the deposited data

How the results depend on the processing

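The scale decided most of the small changes. Rescaling over genes gave 4544 up and 4428 down calls (median -0.0078) for genes, 499 up and 11 down calls (median 0.37) for repeat families, 717 down calls and a median of 0.27 for repeat copies, and 3456 down calls and a median of 0.069 for non-coding units. Rescaling to the summed gene signal gave 3630 up and 5770 down calls (median -0.076) for genes, 427 up and 14 down calls (median 0.30) for families, 848 down calls and a median of 0.21 for copies, and 3988 and 0.0025 for non-coding units. Rescaling over genes turned the sign to 0.082 for Utrn, 0.081 for Trim71, 0.083 for Suz12, 0.10 for Vps13b, 0.28 for Suv39h1, 0.15 for Setdb1, 0.064 for Cbx5, 0.21 for Cdon, 0.0033 for Dnmt3a, 0.089 for Dppa4, 0.33 for Gata4, 0.0050 for Lin28a, 0.35 for Mdm2, 0.18 for Mki67 and 0.077 for B3, and rescaling to the summed gene signal to 0.013 for Utrn, 0.012 for Trim71, 0.015 for Suz12, 0.027 for Vps13b, 0.21 for Suv39h1, 0.086 for Setdb1, 0.14 for Cdon, 0.021 for Dppa4, 0.27 for Gata4, 0.28 for Mdm2, 0.11 for Mki67 and 0.0088 for B3. With no filter, 12790 copies were called up (median 0), with 10278 up and 9411 down calls for non-coding units (median -0.19), since more units were tested. With the minimum set on 0 h alone, which leaves out units silent at 0 h, 710 copies (median -0.34) and 1746 non-coding units (median -0.54) were called up. A fit of the 6 libraries alone called 96 families down, for a cause that was not tested. Leaving out single libraries gave 20 to 34 families called down, with 22 without 48 h replicate 1 and 20 without 0 h replicate 2, medians of repeat copies between -0.089 and -0.010, 1005 to 1131 genes called up and 6986 to 8312 called down. It turned the sign of genes without a call to Gata4 0.053 without 48 h replicate 3; Mdm2 0.026 without 48 h replicate 1 and 0.057 without 0 h replicate 2; Smo -0.00074 without 0 h replicate 1 and -0.0094 without 0 h replicate 3; Ifih1 -0.0044 without 48 h replicate 2 and -0.064 without 0 h replicate 3; Pou3f1 -0.0045 without 0 h replicate 1 (ranges -0.067 to 0.053 for Gata4, -0.064 to 0.057 for Mdm2, -0.0094 to 0.15 for Smo, -0.064 to 0.059 for Ifih1 and -0.0045 to 0.15 for Pou3f1). The share of genes called up beside a risen LTR copy before the start on their strand was 75% with genes and copies rescaled and 51.0% within 5 kb, both chosen after seeing the data. Over all tested genes the share called up was 29.8% after rescaling and 7.65% on the deposited scale, the one used for the 5 kb share. With the replicate number as a block, 1221 genes were called up and 9319 down; same-numbered libraries did not deviate together (correlations between -0.025 and -0.015), so the numbers pair nothing. In 3659 of the single gene, family, copy and unit values recomputed under another setting the direction and the call stood, 83 lost the call, 35 gained one and 35 changed sign. A pseudocount of 5 and edgeR on recovered reads moved no count of calls by 1.5 times.

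Precision is limited for units with few reads: most repeat copies and many non-coding units fell under the minimum mean of 10 and were not tested. Reads shared by near-identical copies cannot be told apart, so families are firmer than copies. The deposited size factors carry the shift of all genes, and whether that shift is one of the cells or of the scaling cannot be told apart with these values.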
